A study of Mus musculus with 11 samples.

Results

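This account concerns 44 mouse genes whose products shorten the poly(A) tail of messenger RNA, remove its cap or degrade its body. They were chosen by gene symbol for membership of these machineries, and all 44 were found among the 39179 gene identifiers of the table and passed the filter on low values. They fall into 17 deadenylases with their adaptors, 14 decapping factors, and 13 exonucleases and exosome subunits. RNA-seq gave their transcript levels in WT and Mettl3-KO cells of the C57BL/6 strain, either as embryonic stem cells (ESCs, 3 libraries per genotype, A, B and C) or as embryoid bodies (EBs, 2 libraries per genotype, A and B). Embryoid bodies are floating aggregates in which ESCs differentiate. All ESCs grew without serum in N2B27-based medium with human LIF and the inhibitors CHIR99021 and PD0325901, and all EBs formed on non-adherent plates in medium with serum. The labels name the replicates biological, and they give neither the knockout allele nor the number of knockout lines. A WT fibroblast sample of the series is not analysed here.

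Decay of a messenger RNA usually starts with the loss of its poly(A) tail. The Pan2-Pan3 pair and the CCR4-NOT complex carry this out, and the tail's loss opens 2 routes. In one, the Lsm1 to Lsm7 ring, Patl1 and Ddx6 bring in the decapping enzyme Dcp2, after which Xrn1 digests the body from the capped end. In the other, the exosome, a barrel of Exosc subunits with the nucleases Dis3, Dis3l and Exosc10, digests it from the tail end. Mettl3 catalyses N6-methyladenosine (m6A), a mark concentrated near stop codons. The m6A reader Ythdf2 is known to recruit CCR4-NOT through Cnot1, so the machinery described here acts downstream of the mark.

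Values are DESeq-normalized counts, that is read counts divided by a size factor per library. Reads assigned to genes numbered 8523027 to 15426894 in 8 libraries, and 3026837 and 3075007 in ESC replicate C of WT and KO, the pair that the labels tie to a SILAC protein assay. Mettl3 itself read 422, 392 and 425 normalized counts in A, B and C of WT ESCs against 138, 133 and 131 in KO ESCs, and 399 and 368 in WT EBs against 154 and 147 in KO EBs. Its KO libraries lay below every WT library. The 8 ESC markers were present in every group. Their sums were 37365 to 40067 normalized counts in WT ESC replicates A and B and 43917 to 48743 in those of KO, but 108877 and 48401 in replicate C of WT and KO. The endoderm markers summed to between 41838 and 41875 in WT EBs and between 242 and 246 in KO EBs, where Afp was listed at 0. Fibroblast and matrix markers summed to between 6314 and 6390 in WT ESC replicates A and B and between 10941 and 11174 in those of KO, but to 217 and 167 in replicate C.

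ESC replicate C stood apart from A and B for the decay genes as well, and most of all for the Lsm ring. In WT ESCs the normalized count of Lsm5 was 21.5 in A, 23.7 in B and 1028 in C. In KO ESCs it had 18.5, 18.2 and 717. Lsm7 likewise had 29.3 and 28.2 against 682 in WT, and 43.0 and 28.2 against 644 in KO. Relative to the mean of A and B, replicate C was thus higher by 5.45 and 5.21 on the log2 scale for Lsm5 and by 4.52 and 4.17 for Lsm7, in WT and KO. The median over the 7 Lsm genes was 2.05 in WT and 1.67 in KO, with Lsm4 (-0.43 and -0.94) the one member of the ring that lay lower in C. Over all 44 genes the median was 0.60 and 0.74, against -0.20 in both genotypes over the 15781 genes tested. Xrn1 lay lowest in WT, at -1.89. Across the 44 genes this shift had Spearman's rho of -0.28 in WT and -0.35 in KO with exon length, a description over genes that share the same libraries. Over 13364 tested protein-coding genes rho was -0.15 and -0.18, so the direction was not particular to the decay genes. The trend did not hold at all lengths. Protein-coding genes of up to 1000 exon bases, as Lsm5 is with 792, had medians of -0.33 in WT and -0.09 in KO. Shifts of more than 1 in either direction were found for 36.4% and 45.5% of members, and for 49.6% and 51.2% of tested genes. EB libraries resembled ESC A and B in this respect, with 14.6 to 19.1 normalized counts of Lsm5 and 25.0 to 41.0 of Lsm7.

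**Figure D1:**
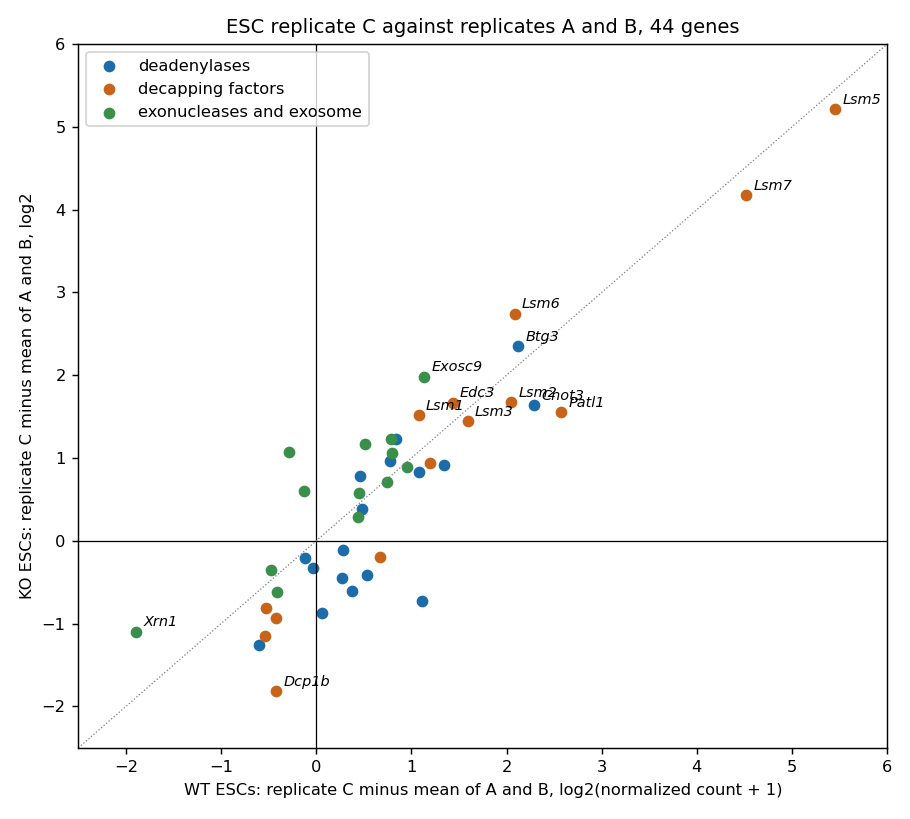
Each of the 44 points is a gene, with the log2 difference between ESC replicate C and the mean of replicates A and B in WT on the horizontal axis and in KO on the vertical axis, coloured by class. Lsm5 and Lsm7 lie farthest from the others, at 5.45 and 5.21 and at 4.52 and 4.17.

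Because Mettl3 writes m6A, the transcripts were searched for GGACT, a common form of the sequence the mark sits in, within 200 bases either side of the stop codon on the transcript strand. Each gene was represented by a single GENCODE vM21 transcript on the mm10 build. The motif stood in 8 of 39 decay genes whose transcript filled the 403-base window (20.5%), and in 41.4% of 11619 tested protein-coding genes. By class it stood in 5 of 17 deadenylases, 0 of 12 decapping factors and 3 of 10 exonuclease and exosome genes. Exosc8 and Exosc10, whose windows end early, held it too. These counts are of the window alone. Over the whole transcript Cnot1 had the most matches, 11 in 8364 bases, while Ddx6 had 7 in 6065 bases and Dcp2 6 in 8616. Lsm3, Lsm4, Lsm5 and Lsm7 had 0, in transcripts of only 743, 925, 494 and 468 bases. These whole-transcript counts are not corrected for length. The 4 sequences shown have the motif nearest to the stop codon, and all belong to exosome genes. Capitals mark GGACT, and each line is 25 bases of the transcript, 5′ to 3′.
Exosc4: tctcactgggGGACTgagtggcaac
Exosc10: agtgctggagGGACTcctggggctg
Exosc1: accccaaagaGGACTtcagcacttc
Exosc2: ctgaaggatgGGACTgggcaccccc
In Exosc4 (chr15:76329699-76329723, plus strand, exon 3 of 3) the motif overlaps the stop codon. In Exosc10 (chr4:148582313-148582337, plus strand, exon 25 of 25) the methylatable A lies 11 bases past the stop codon, in the 3′ UTR. In Exosc1 (chr19:41923949-41923973, minus strand, exon 8 of 8) and Exosc2 (chr2:31680580-31680604, plus strand, exon 9 of 9) it lies 21 and 22 bases past it. A match of letters does not show that the base is methylated, and no methylation data were used.

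Transcript level per kilobase of exon, with all annotated exons of a gene merged, set the members far apart. Among deadenylases Cnot8, a catalytic subunit of the CAF1 type, had the highest mean over the 10 libraries, at 439 normalized counts per kilobase, while Cnot6l had 13.6. Xrn2, the nuclear exonuclease that digests from the 5′ end, led the exonuclease class with 397, and its cytoplasmic relative Xrn1 stood lowest with 11.7. The lead of Xrn2 depends on the length used. The transcripts searched for the motif have 3434 bases for Xrn2 and 1686, 1053 and 1300 for Exosc2, Exosc7 and Exosc8. By those lengths Exosc2, Exosc7 and Exosc8 would stand above Xrn2. Lsm4 led the decapping class with 1071, and Dcp1b, at 10.8, was its lowest. Dcp2, the decapping enzyme, had 218. The mean of Lsm5, 239 per kilobase, was 23.2 when the replicate C libraries were left out, and that of Lsm4 was 1128.

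The first comparison asks which decay genes differ between Mettl3-KO and WT ESCs. In KO the exosome barrel subunit Exosc5 and the CCR4-NOT scaffold Cnot1 had lower levels in every library, and the cytoplasmic exosome nuclease Dis3l and the deadenylase Cnot6l higher ones. These were the members whose KO and WT libraries did not overlap, 2 higher and 2 lower, where 9.23% and 8.78% of all genes did so. No member passed an adjusted p of 0.05 in limma (0 of 44, against 2.38% of 15781 genes tested), and 5 had an unadjusted p under 0.05 (17.2% of all genes did). edgeR called 0 (2.15% of all genes passed) and DESeq2 called 4 (12.4% of all genes), namely the 4 that did not overlap. Since ESC replicate C deviated from A and B in both genotypes, the replicate letter was also fitted as a block. In that fit 3 members rose and 5 fell, where 29.3% of all genes passed, and with both replicate C libraries left out 8 rose and 7 fell, where 55.2% did. In bulk RNA, fewer cells of a type and less RNA per cell cannot be told apart. The ESC, fibroblast and matrix marker signals, given above, also differed between WT and KO, and their part in these differences was not tested.

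Among deadenylases, Cnot6l had 85.8, 91.6 and 122 normalized counts in A, B and C of WT ESCs and 129, 191 and 269 in KO ESCs. Every KO library lay above every WT library. The log2 difference was 0.92 ± 0.31 (SE, limma adjusted p = 0.179), with an adjusted p of 0.0124 under the replicate block. Cnot1, which holds the CCR4-NOT complex together, had 3195, 3665 and 3334 in WT and 2444, 2635 and 2027 in KO. Here the highest KO library stayed below the lowest WT library, with a difference of -0.53 ± 0.16 (limma adjusted p = 0.131, and 0.0107 with the block). Cnot8 had 1162, 1268 and 1120 in WT against 1297, 1379 and 1155 in KO, so that the groups overlapped and the difference of 0.11 ± 0.14 was smaller than its error. Btg1, an adaptor that ties CCR4-NOT to its targets, showed how replicate C can turn a value. It had 281 and 293 in A and B of WT and 485 and 491 in those of KO, but 619 and 294 in C of WT and KO. Its difference was 0.15 ± 0.34 over all libraries and 0.76 ± 0.09 without replicate C (limma adjusted p = 0.960 and 0.000156). The catalytic subunit Cnot6 had 439, 449 and 758 in WT and 377, 385 and 742 in KO, lower in KO within each letter, at -0.16 ± 0.32. The class median was -0.04, against -0.02 over all genes, and its members ranged from -0.53 to 0.92.

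The decapping class held the smallest spread of differences in ESCs. Their differences ran from -0.38 to 0.32, with a median of -0.13, and none passed over all libraries with or without the block. Without replicate C, Dcp1a rose (0.61 ± 0.13, limma adjusted p = 0.00429) and Lsm6 fell (-0.39 ± 0.12, limma adjusted p = 0.0213). Dcp2 had 2100, 2549 and 1594 normalized counts in WT ESCs and 2536, 2930 and 1225 in KO, higher in KO for A and B and lower for C. The difference was 0.03 ± 0.34. Dcp1b, an activator of Dcp2, had the largest difference of the class, -0.38 ± 0.50, and it rested on 1 library. Its counts were 61.5, 54.2 and 42.8 in WT and 60.4, 61.8 and 16.7 in KO, the last from 6 reads. Without the KO replicate C library the sign turned, to 0.22. The RNA helicase Ddx6 had 883, 953 and 2108 in WT and 851, 905 and 1678 in KO, at -0.15 ± 0.39. Lsm4 had 1562, 1237 and 1034 against 1487, 1251 and 711. Lsm5, whose values are given above, had a difference of -0.36 with an SE of 1.83, and its sign turned when any of WT C, KO A or KO B was left out.

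The class of exonucleases and exosome subunits held the widest range of differences. Exosc5 had 1125, 984 and 962 normalized counts in WT ESCs and 453, 386 and 633 in KO ESCs. The KO libraries all lay below the WT ones, by -1.09 ± 0.22 (limma adjusted p = 0.0503, just above the threshold, and 0.0107 with the block). It fell under DESeq2 (adjusted p = 0.000621), and without KO replicate C the limma adjusted p was 0.00834. Dis3l had 176, 202 and 155 in WT and 291, 318 and 639 in KO. All KO libraries were higher, by 1.14 ± 0.31 (limma adjusted p = 0.103, and 0.0429 with the block), although KO replicate C alone stood at 639, and without both C libraries the difference was 0.68 ± 0.12. Exosc4, another barrel subunit, had 534, 380 and 323 in WT and 772, 585 and 528 in KO. It was higher in KO within every letter, and the groups overlapped only through WT A and KO C. Its difference was 0.62 ± 0.25 (limma adjusted p = 0.259, and 0.00611 with the block). Exosc9 had 762, 797 and 1710 in WT and 316, 410 and 1422 in KO, lower within each letter while replicate C of KO exceeded A and B of WT. The difference of -0.83 ± 0.57 had a limma adjusted p of 0.562 (0.0335 in the block fit). Exosc10 and Dis3, both nucleases of the exosome, also fell with the block (-0.31 ± 0.07 and -0.35 ± 0.06, limma adjusted p = 0.0268 and 0.0163). Xrn2 had 1907, 2214 and 1545 in WT and 1709, 2087 and 1228 in KO, at -0.19 ± 0.23. Thus 2 of 13 members rose and 4 fell with the block, where 29.3% of all genes passed, and the class median was -0.10.

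Some of these genes share exon sequence with a gene on the opposite strand, and the library kit keeps no strand. Of the exon length of Exosc9, 10.8% overlaps Ccna2, which encodes a cyclin and was itself lower in KO (-0.56 in ESCs and -0.95 in EBs, limma adjusted p with the block 0.0289 and 0.0161). Exosc4 shares 19.8% with Oplah, which had 0.34 in ESCs and -0.59 in EBs (limma adjusted p with the block 0.0608 and 0.0298). Exosc5 shares 5.7% with Tmem91 (-0.64 and 0.93, limma adjusted p with the block 0.0674 and 0.0501). Btg3 shares 17.3% with Cxadr (-0.17 and -1.85, limma adjusted p with the block 0.524 and 0.00844). How reads in the shared stretches were counted is not given in the sources used here, and their part in the differences was not tested.

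**Figure D2:**
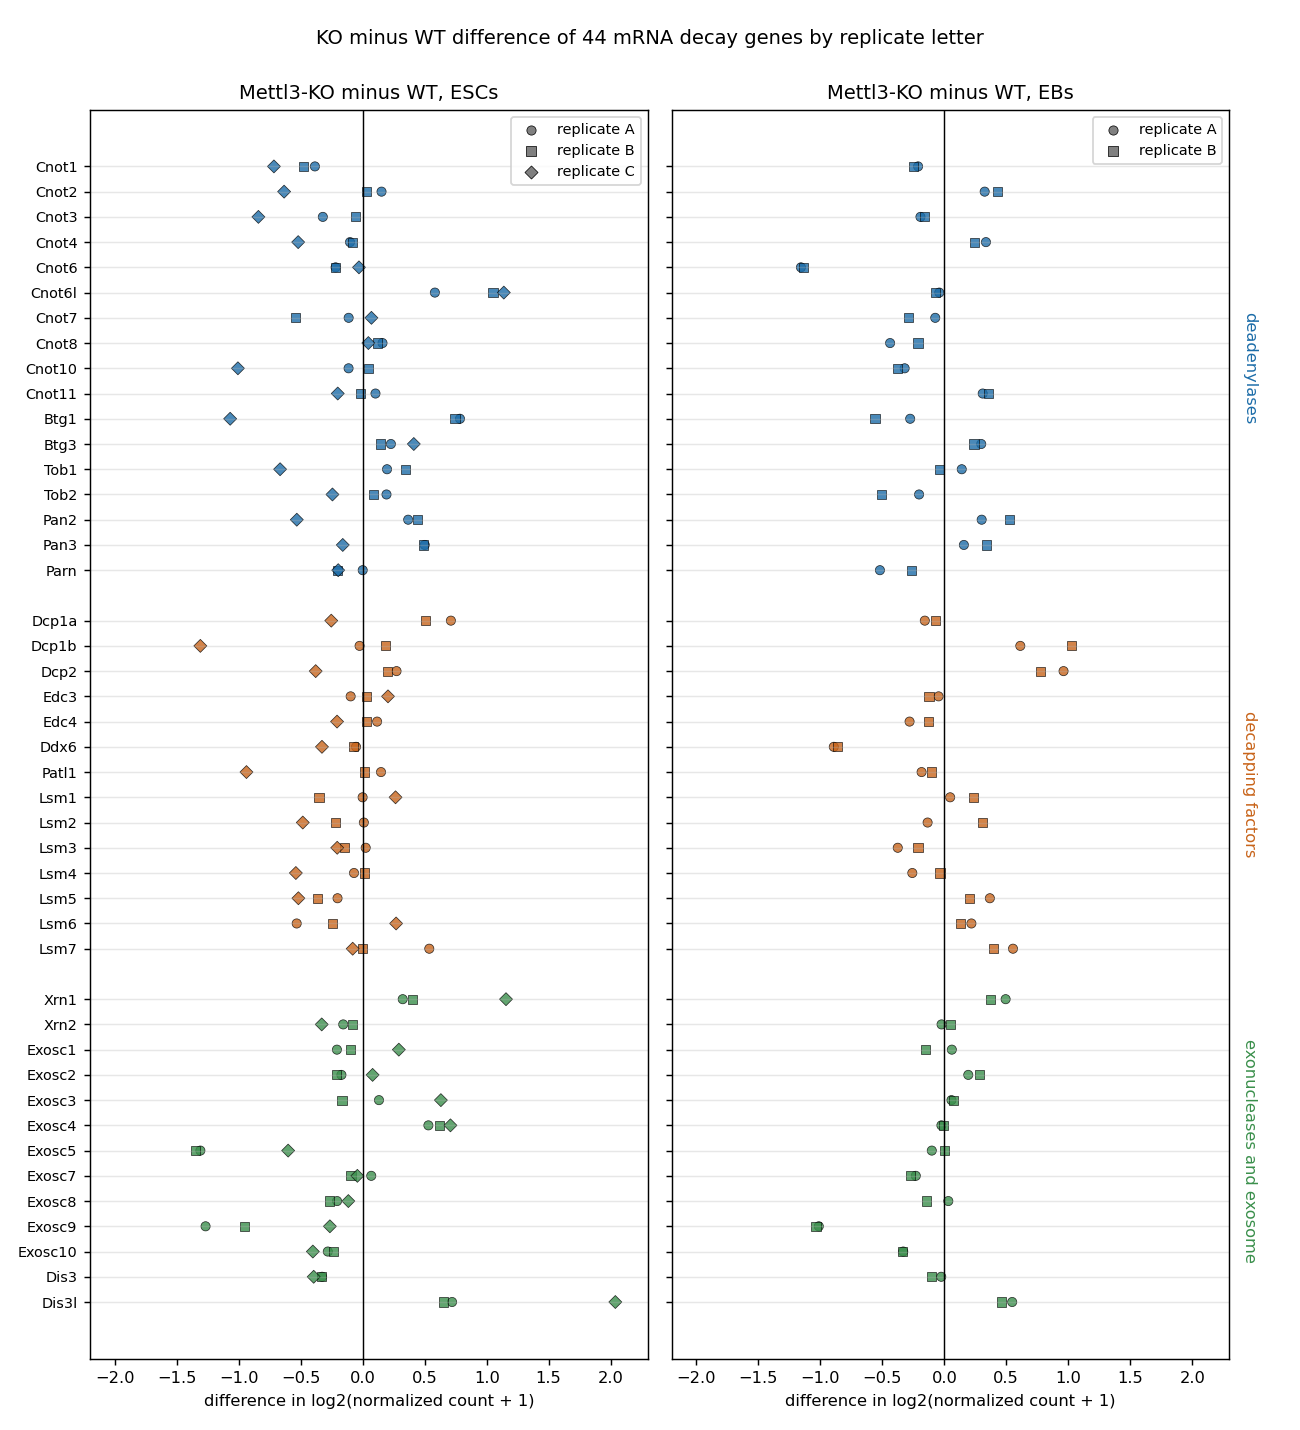
Each row is a gene and each symbol the KO minus WT difference in log2(normalized count + 1) between libraries of the same letter, in ESCs on the left and EBs on the right, coloured by class. In ESCs Exosc5 lies left of 0 and Dis3l, Exosc4 and Cnot6l right of 0 for all 3 letters. They are not alone in this. Cnot1, Cnot6, Exosc9, Exosc10 and Dis3, among others, lie left of 0 for all 3 letters, and Cnot8 and Xrn1 right of 0. Further genes, such as Btg1 and Pan2, have replicate C on the opposite side from A and B.

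In embryoid bodies other members stood out. The deadenylase Cnot6 and the helicase Ddx6 were lower in KO EBs, Exosc9 was lower as it was in ESCs, and Dcp2 was higher. No member passed limma's threshold in EBs (0 of 44, against 1.84% of all genes), 1 had an unadjusted p under 0.05, and edgeR and DESeq2 called 0 (1.78% and 9.83% of all genes). The EB groups of 2 libraries share their estimate of spread with the ESC groups. With ESC replicate C left out, 7 members rose and 10 fell in EBs, where 51.9% of all genes passed, and with the block 1 rose and 4 fell, where 22.7% did. Groups did not overlap for 14 members higher in KO and 17 lower, where 36% and 38.9% of all genes did so. WT and KO EBs also differed in their endoderm markers, as given above. The lower and higher sums of the ESC markers were 19513 and 21198 normalized counts in WT EBs and 28504 and 32220 in KO EBs, and those of the neural markers 306 and 388 against 565 and 731. Fibroblast and matrix markers had 2952 and 2991 against 1965 and 1997, and mesoderm markers 57.7 and 83.5 against 12.7 and 17.0. The part of cell composition in the values below was not tested.

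Cnot6 had 719 and 740 normalized counts in WT EBs and 322 and 336 in KO EBs. Both KO libraries lay far below both WT libraries, with a difference of -1.15 ± 0.39 (limma adjusted p = 0.227). With ESC replicate C left out the SE was 0.08 and the adjusted p 6.89e-06. Cnot6 lies on chromosome 11, where the median over 1344 genes was -0.44 in KO EBs and -0.23 in KO ESCs. Cnot8, on the same chromosome, had 1165 and 1163 in WT EBs and 860 and 1004 in KO, lower by -0.33 ± 0.17, whereas Tob1, also there, had 356 and 275 against 392 and 268. What moves the other genes of this chromosome was not tested. Btg1 had 559 and 603 in WT EBs and 461 and 408 in KO EBs, at -0.42 ± 0.42 (limma adjusted p = 0.858). Cnot6l, which was higher in KO ESCs, had 113 and 148 against 109 and 141. Cnot1 had 2538 and 2966 in WT EBs and 2191 and 2498 in KO EBs, a gap of -0.23 ± 0.19.

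Among decapping factors, Dcp2 had 946 and 1211 normalized counts in WT EBs and 1844 and 2074 in KO EBs. The KO libraries were both higher, with a difference of 0.87 ± 0.42 (limma adjusted p = 0.433, and 0.00103 without ESC replicate C). Ddx6, by contrast, had 1011 and 1117 in WT and 545 and 613 in KO, a difference of -0.88 ± 0.47 (limma adjusted p = 0.505, and 8.62e-05 without ESC replicate C). Dcp1b had 75.9 and 63.7 in WT and 117 and 131 in KO, at 0.82 ± 0.62. The partner of Dcp2 that is more abundant per kilobase, Dcp1a, had 388 and 460 against 347 and 437. Lsm4 had 1158 and 863 against 968 and 842. Lsm5 stood at 14.6 in both WT EBs and at 19.1 and 17.0 in KO EBs. Of the 14 decapping factors 7 lay above 0 and 7 below, with a class median of 0.0006. In limma with all libraries and no block, 0 of them had an unadjusted p under 0.05.

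In the exosome, Exosc9 had 555 and 643 normalized counts in WT EBs and 275 and 313 in KO EBs. The KO libraries were lower by -1.02 ± 0.70 (limma adjusted p = 0.655, and 0.000333 without ESC replicate C). Exosc10 had 715 and 720 against 568 and 571, a smaller gap of -0.33 ± 0.21 with tight replicates. Dis3l remained higher in KO, with 160 and 185 against 234 and 256, at 0.51 ± 0.37. Exosc5, which had the lowest difference in ESCs, had overlapping groups in EBs, with 886 and 676 in WT and 826 and 677 in KO. Exosc4 read 514 and 395 against 506 and 393. Xrn2 had 1183 and 1362 in WT EBs and 1165 and 1410 in KO EBs. The class median was -0.05, and over all genes it was -0.02.

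**Figure D3:**
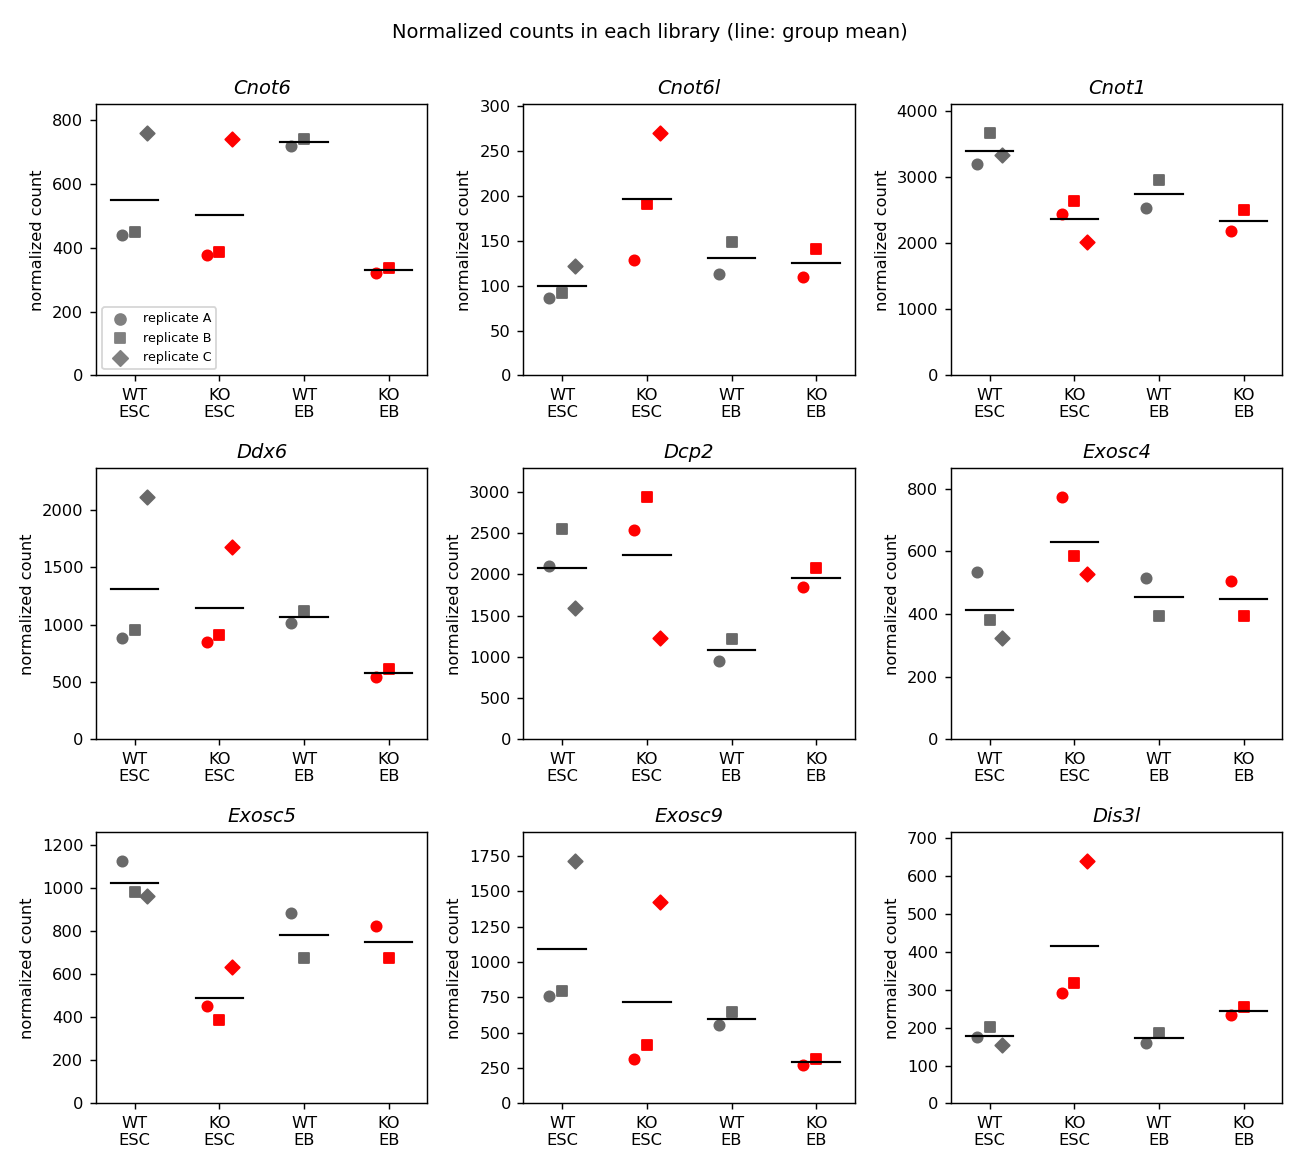
Normalized counts of 9 decay genes in every library, with a linear axis from 0, the letters as symbols, WT in grey, KO in red and a line at each group mean. Exosc5, Dis3l, Cnot6l and Cnot1 separate by genotype in ESCs. Cnot6, Ddx6, Dcp2, Exosc9, Cnot1 and Dis3l separate in EBs. With 2 EB libraries per genotype, 36% of all genes lay apart as higher in KO and 38.9% as lower.

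Whether the KO effect itself differed between EBs and ESCs was tested as an interaction. In limma 0 of 44 members passed, against 0.475% of all genes, with 1 at an unadjusted p under 0.05, and edgeR and DESeq2 called 0 (0.532% and 4.9% of all genes). Without replicate C 11 passed, where 36.1% of all genes did. With the replicate block 3 passed, where 7.79% did, and each had a more negative effect in EBs. They were Cnot6 (-0.16 in ESCs and -1.15 in EBs), Ddx6 (-0.15 and -0.88) and Exosc4 (0.62 and -0.02). Exosc5 had the opposite pattern, -1.09 in ESCs and -0.05 in EBs, a difference of 1.04 ± 0.35 (limma adjusted p = 0.370, 0.0787 in the block fit and 0.00217 once replicate C is left out). For Dcp2 the effects were 0.03 and 0.87, and their difference of 0.84 ± 0.54 had a limma adjusted p of 0.911, or 0.0372 without replicate C.

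Comparing EBs with ESCs within each genotype asks how the machinery differs between these cultures. ESCs grew without serum, with LIF and the inhibitors, and EBs in medium with serum. Medium and differentiation therefore cannot be told apart here. Most members were lower in EBs, with 33 of 44 below 0 in WT and 33 of 44 in KO. The median difference was -0.32 in WT and -0.35 in KO, while over all genes it was 0.09 and 0.07. None passed in limma in WT (0 of 44, against 2.48% of all genes, 4 at an unadjusted p under 0.05) or in KO (0 of 44, against 0.805%, 6 at an unadjusted p under 0.05). edgeR called 0 in both (2.78% and 1.22% of all genes). DESeq2 called 0 in WT (9.66% of all genes) and 2 in KO (8.99%), namely Cnot8 lower and Dcp1b higher in EBs. With the replicate block 1 member rose and 17 fell in WT, and 2 rose and 17 fell in KO, where 37.9% of all genes passed in each. Much of this gap lay in replicate C. Without it the medians were -0.13 and -0.17, against -0.04 and -0.05 over all genes. In that fit 3 members rose and 13 fell in WT, where 46.1% of all genes passed, and 4 rose and 16 fell in KO, where 47.3% did.

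Of the 13 exonuclease and exosome genes, 7 fell and 0 rose in WT by that fit (53.8%, near the 46.1% of all genes), namely Xrn2, Exosc1, Exosc2, Exosc5, Exosc8, Exosc9 and Exosc10, with a class median of -0.32. In KO 4 fell, Xrn2, Exosc4, Exosc8 and Exosc10, and Exosc5 rose (38.5% of the class, below the 47.3% of all genes). Xrn2 fell from 1907 and 2214 normalized counts in WT ESC replicates A and B to 1183 and 1362 in WT EBs, and no library of the ESC group, C included at 1545, was as low as an EB library. The difference for Xrn2 was -0.69 ± 0.14 without replicate C and -0.56 ± 0.26 with it. Exosc2, in the cap of the exosome, had 774, 818 and 1380 in WT ESCs and 503 and 541 in WT EBs. Dcp2 was lower in WT EBs, at 946 and 1211 against 1594 to 2549 in ESCs, a difference of -0.93 ± 0.38 (limma adjusted p = 0.316, and 0.000305 without replicate C). In KO cells that gap was -0.09 ± 0.38 with all libraries, and without replicate C it was -0.48 ± 0.14 (limma adjusted p = 0.0223), so Dcp2 fell in both genotypes by that fit. Cnot6 went in opposite directions, 0.72 ± 0.08 in WT and -0.21 ± 0.08 in KO without replicate C (limma adjusted p = 0.000107 and 0.0474). Btg1 was higher in WT EBs than in WT ESC replicates A and B, at 559 and 603 against 281 and 293, but replicate C had 619. Dcp1b was higher in KO EBs, at 117 and 131, than in KO ESCs, at 60.4, 61.8 and 16.7, a difference of 1.61 ± 0.56 (limma adjusted p = 0.257, DESeq2 adjusted p = 0.0400). The 4 comparisons share libraries, so their values stand side by side and are not independent.

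**Figure D4:**
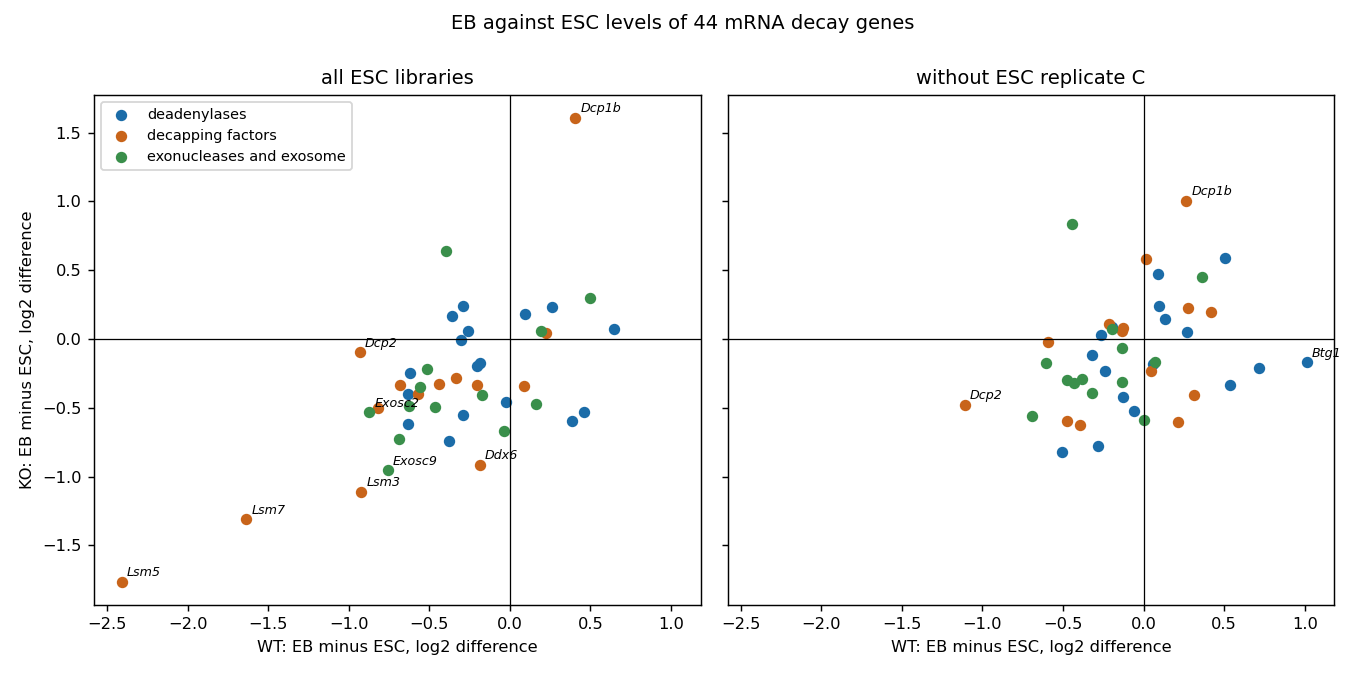
EB minus ESC log2 differences of the 44 genes in WT (horizontal) and KO (vertical), with all ESC libraries on the left and without ESC replicate C on the right, coloured by class. On the left Lsm5 and Lsm7 lie at the lower left, with Lsm5 at -2.41 and -1.76, and on the right Lsm5 lies at -0.59 and -0.03 while Dcp2 keeps a low WT value of -1.11.

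The 6 pairs of closely related members were set side by side by their level per kilobase of exon. Cnot6 exceeded its relative Cnot6l by 8.58 times in WT ESCs and 3.98 times in KO ESCs, and by 8.74 and 4.10 times in WT and KO EBs. In ESCs the smaller ratio came with a higher Cnot6l, and in EBs with a lower Cnot6. Dis3 exceeded Dis3l 3.58 times in WT ESCs and 1.19 times in KO ESCs, and 2.45 and 1.65 times in EBs. Dcp1a exceeded Dcp1b 5.93 and 8.26 times in WT and KO ESCs, and 4.68 and 2.44 times in EBs. Cnot7 stood at 0.212 of Cnot8 in WT ESCs and at 0.179 to 0.200 in the other groups. Btg1 exceeded Btg3 3.80 and 3.17 times in WT and KO ESCs and 8.31 and 5.14 times in EBs, and Tob1 exceeded Tob2 4.99, 4.76, 6.85 and 9.08 times in the same order. Without replicate C some of these orders turned. The ratio of Btg1 to Btg3 was then 5.88 in WT and 8.72 in KO ESCs, so that KO ESCs lay above both WT ESCs and KO EBs, and that of Tob1 to Tob2 was 4.66 and 5.06, with KO above WT. For Dcp1a to Dcp1b it was 4.53 and 6.53, the WT value now below that of WT EBs, and Cnot7 stood at 0.164 and 0.118 of Cnot8, below both EB groups. The ratio of Dis3 to Dis3l was 2.56 and 1.26, and that of Cnot6 to Cnot6l 7.81 and 3.72, lower in KO as with all libraries. These ratios are of group means and have no test. Their size depends on the length used, while the comparison of one pair between groups does not. Btg1 and Btg3 have 5276 and 4014 merged exon bases, but 5001 and 1414 in the transcripts searched for the motif. For Cnot6 and Cnot6l these are 6610 and 10313, but 2498 and 8564.

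Among the other members of the CCR4-NOT complex, Cnot2, Cnot3, Cnot4, Cnot10 and Cnot11, and likewise the Pan2-Pan3 deadenylase and the poly(A) ribonuclease Parn, passed in neither genotype comparison with all libraries. Pan2 had 528, 520 and 547 normalized counts in WT ESCs and 681, 705 and 378 in KO ESCs, again with replicate C opposite to A and B, and 452 and 434 against 557 and 624 in EBs. Pan3 had 491, 513 and 329 in WT ESCs and 694, 719 and 294 in KO ESCs. Cnot10 was lower in EBs than in ESCs in both genotypes without replicate C, by -0.51 ± 0.07 and -0.82 ± 0.07. Xrn1 had 210, 237 and 59.3 in WT ESCs and 262, 313 and 133 in KO ESCs, higher in KO within every letter, at 0.63 ± 0.55 (limma adjusted p = 0.694, and 0.0641 with the block). The cap subunits Exosc1 and Exosc3 and the barrel subunits Exosc7 and Exosc8 had ESC differences no larger than their errors.

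Outside these 44 genes, 99 further decay genes were tested in lists of deadenylation, nonsense-mediated decay, exosome cofactors, decapping, RNA-binding decay factors, microRNA silencing, and poly(A) binding and tailing. In KO ESCs 3 rose and 2 fell in limma (5.05%, against 2.38% of all genes). Ythdf2, the m6A reader that brings in CCR4-NOT, rose from 819, 884 and 988 normalized counts to 2093, 2226 and 2583 (1.36 ± 0.14, limma adjusted p = 0.0176). Pelo, a ribosome rescue factor, rose by 1.73 ± 0.16 and Pde12, a mitochondrial poly(A) nuclease, by 0.92 ± 0.16. Dazl, a germline RNA-binding protein, and Pnrc1, a decapping coactivator, fell (-2.55 ± 0.32 and -1.41 ± 0.28). In KO EBs 3 passed (3.03%, against 1.84% of all genes). Ythdf2 rose (0.99 ± 0.18, limma adjusted p = 0.0384), and Btg2 and Dazl fell (-1.82 ± 0.31 and -2.27 ± 0.39). In WT EBs the scavenger decapping enzyme Dcps and the exosome cofactor Zcchc8 were lower than in WT ESCs (-1.09 ± 0.17 and -0.99 ± 0.17). That is 2.02% of the lists, against 2.48% of all genes. No gene of these lists passed in EBs against ESCs of KO cells, where 0.805% of all genes did. The KO effect on Btg2, a relative of Btg1, was lower in EBs than in ESCs by -2.62 ± 0.40 (limma adjusted p = 0.0470), the 1 gene of the lists (1.01%, against 0.475% of all genes) that passed this test.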

How the data were processed

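Per the submitters' processing notes, the tools of the authors were HTSeq 0.6.0, TopHat2 2.0.10, Bowtie, CASAVA 1.8.2 and DESeq, with mm10 as the build. The strand setting and annotation release are not given in the sources used here, and the labels name a TruSeq kit on polyA RNA. The deposited signal values are read counts divided by DESeq size factors. Dividing by the smallest value recovered whole reads for 100% of values (tolerance 0.01), and 5 summary lines of the counter were left out. Here log2(value + 1) was tested with limma 3.58.1 for the 15781 genes whose mean reached 10, in one fit of 4 group means (trended, robust variances, two-sided, Benjamini-Hochberg over genes, threshold 0.05, 6 residual degrees of freedom). Alternatives were edgeR 4.0.16 and DESeq2 1.42.0 on whole reads, other filters, pseudocounts and scaling, left-out libraries, and the replicate letter as a block. P-values measure the spread between libraries as labelled.

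Same-letter WT and KO ESC libraries deviated together across genes (r = 0.845, 0.828 and 0.858), above the bound of 0.1. WT A with KO B (0.809) and WT B with KO A (0.812) did nearly as much, while C against A or B had r of -0.846 to -0.836. The check thus sets replicate C apart, but it cannot show that A pairs with A or B with B. EBs had r = 0.369 and too few pairs to decide. The genotype comparisons were tested on simulated data. These had no shift between replicate letters, so they cannot show how the fits deal with ESC replicate C. Values in every library are given for the 2 members of each class with the largest KO difference in ESCs and in EBs, the most abundant per kilobase, and related pairs. Others named were chosen after their values were seen. The members and lists were chosen with earlier results of these data known. Positions and symbols come from GENCODE vM21.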

Additional observations from a re-analysis of the deposited data

Results flagged for a closer look

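For 3 members the KO effect differed between EBs and ESCs by a test of the difference itself, in limma with the replicate block. The KO effect in EBs minus that in ESCs was -0.99 for Cnot6, -0.73 for Ddx6 and -0.63 for Exosc4 on the log2 scale, with adjusted p of 0.0176, 0.0358 and 0.0409. Without the block the adjusted p was 0.716, 1 and 0.886. Without ESC replicate C the values were -0.93, -0.81 and -0.59, with limma adjusted p of 0.000291, 0.00157 and 0.159. In that fit 36.1% of all genes passed. Both EB letters of Cnot6 and Ddx6 were lower in KO, and all 3 ESC letters of Exosc4 were higher. Exosc4 shares 19.8% of its exon length with Oplah, whose KO difference was 0.34 in ESCs and -0.59 in EBs. The part of reads in that stretch was not tested. The EB letters, and ESC letters A and B, are not shown to pair the libraries.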

How the results depend on the processing

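Counts of called members were 0 in all 5 comparisons with all libraries in limma, and they depended on ESC replicate C. With the replicate block 8 members passed in KO against WT ESCs, 5 in EBs, 18 in EB against ESC in WT, 19 in KO and 3 in the difference of KO effects. The shares of all genes that passed were 29.3%, 22.7%, 37.9%, 37.9% and 7.79%. edgeR with the replicate block, chosen after seeing the data, gave 9, 6, 17, 21 and 5, where 39.8%, 34.4%, 45%, 46.7% and 15.9% of all genes passed. Leaving out both ESC replicate C libraries gave 15, 17, 16, 20 and 11, where 55.2%, 51.9%, 46.1%, 47.3% and 36.1% of all genes passed. EB libraries alone gave 13 in EBs, where 49.2% of all genes passed. DESeq2 gave 4 in ESCs (12.4% of all genes passed) and 2 in EB against ESC in KO (8.99%), with no adjusted p for Lsm5 and Lsm7. A pseudocount of 5 gave 1 in ESCs (Exosc5, where 2.48% of all genes passed). Leaving out single libraries gave 0 to 3 in ESCs, where KO replicate C removed gives Exosc5, Exosc9 and Dis3l (13.8% of all genes passed) and WT replicate C removed gives Exosc5 (8.52%), and 0 to 1 in EB against ESC in KO (Cnot10, without KO replicate C, 6.0%). These 1 to 3 of 44 members lie at or below the share of all genes. The ESC difference of Dcp1b reversed to 0.080 without both replicate C libraries and ranged from -0.69 to 0.22 when single libraries were left out, with 0.22 without KO C. That of Lsm5 ranged from -2.10 to 1.45, with 1.45, 0.50 and 0.51 without WT C, KO A and KO B. The other alternatives, TMM scaling, edgeR without the block, a pseudocount of 0.5 and other filters, called 0. In the replicate C libraries 3 reads equal 8.33 to 9.88 normalized counts.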
